A study of Mus musculus with 12 samples.

Results

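The G1 cyclins and their kinases were 8 genes of the 55335 counted in each library, chosen by exact match of their names: the D cyclins Ccnd1, Ccnd2 and Ccnd3, the E cyclins Ccne1 and Ccne2, and the kinases Cdk2, Cdk4 and Cdk6. RNA came from muscle stem cells (MuSCs) of Pax7-ZsGreen mice, a transgenic line whose Pax7-expressing cells are green, which were 3 to 6 months old and gave hindlimb cells sorted for ZsGreen. F cells went into lysis reagent as they left the sorter, and 2d-U and 5d-U cells grew for 2 and 5 days without compression. 2+3d-C cells grew for 2 days without compression and then for 3 days beneath a pillar device that limits cell height. All cultured cells grew on a surface coated with Matrigel and fibronectin in a medium containing FGF and serum, with or without compression. The paper used plastic or hydrogel and does not name the surface of the sequenced cultures. How much of the growth factors reached cells beneath the device is not reported. Each group had 3 libraries, numbered by the labels as F replicates 1, 4 and 5, 2d-U replicates 1, 2 and 3, 5d-U replicates 1, 2 and 6, and 2+3d-C replicates 4, 5 and 10. The labels do not tie libraries to animals or sorts, so the p-values measure the spread between libraries.

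A cell in G1 commits to DNA replication once D cyclins, bound to Cdk4 or Cdk6, and then E cyclins, bound to Cdk2, have phosphorylated the retinoblastoma protein and released E2F factors. The D cyclins respond to mitogens, whereas the E cyclins are themselves transcribed by E2F. Adult MuSCs rest outside the cell cycle and enter it after injury or in culture. A bulk library adds up many cells, and fewer cells of a type and less RNA per cell cannot be told apart in it.

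All 8 members passed the filter on low counts. Between 12540745 and 62424851 reads per library fell on genes. Levels are given as RPKM, reads per kilobase of exon and per 1000000 reads after TMM scaling of the library sizes, so that genes of different length can be compared. The D cyclin genes lie at mm10 chr7:144929931-144939925 (Ccnd1), chr6:127125162-127152193 (Ccnd2) and chr17:47505051-47599691 (Ccnd3), and the E cyclin genes at chr7:38097984-38107534 (Ccne1) and chr4:11191351-11204779 (Ccne2). The kinase genes lie at chr10:128697939-128705031 (Cdk2), chr10:127063534-127067920 (Cdk4) and chr5:3341485-3531008 (Cdk6). Reads on exon shared by 2 genes were not counted. The shared part was 23.4% of the exon length of Ccnd1 (with LTO1), 19.7% of Cdk4 (with Tspan31), 17.4% of Ccne2 (with Ints8), 7.86% or less in Ccnd2, Ccnd3, Cdk2 and Cdk6, and 0 in Ccne1, so the RPKM of Ccnd1, Cdk4 and Ccne2 are understated against those of the others.

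RefSeq promoter windows (build GRCm38.p6, the assembly that mm10 names) were at hand for 5 members, in 6 windows because Ccnd3 had a pair of start sites. Ccnd1, Ccnd2 and Ccne2 had no entry. The 250 bases before the start site are shown for an E cyclin, its kinase and the most abundant member, because these genes stand for the Cyclin E-Cdk2 and Cyclin D-Cdk4 arms whose levels moved together below. Capitals mark the GC box GGGCGG, the E-box CACGTG bound by Myc, and the E2F words TTTCCCGC, TTTGGCGC, TTTCGCGC and TTTGCCGC, on either strand.
Ccne1 (chr7:38107491-38107740, minus strand): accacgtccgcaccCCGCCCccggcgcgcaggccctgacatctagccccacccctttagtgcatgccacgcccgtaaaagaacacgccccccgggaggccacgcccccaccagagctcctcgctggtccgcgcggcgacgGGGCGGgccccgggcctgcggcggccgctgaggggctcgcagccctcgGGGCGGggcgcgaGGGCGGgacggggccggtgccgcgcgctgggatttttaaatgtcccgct
Cdk2 (chr10:128705052-128705301, minus strand): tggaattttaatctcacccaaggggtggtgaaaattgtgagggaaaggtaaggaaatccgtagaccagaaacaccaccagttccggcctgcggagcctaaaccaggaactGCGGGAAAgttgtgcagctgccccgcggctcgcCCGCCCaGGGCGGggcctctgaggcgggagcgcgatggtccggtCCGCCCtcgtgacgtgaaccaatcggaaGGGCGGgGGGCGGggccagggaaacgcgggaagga
Cdk4 (chr10:127063285-127063534, plus strand): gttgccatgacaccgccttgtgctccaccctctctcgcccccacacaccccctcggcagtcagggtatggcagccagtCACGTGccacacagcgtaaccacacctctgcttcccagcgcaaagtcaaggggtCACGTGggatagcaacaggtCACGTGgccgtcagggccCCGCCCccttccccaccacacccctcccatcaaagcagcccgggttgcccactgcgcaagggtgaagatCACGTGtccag

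The Cdk4 window held 4 copies of CACGTG, at 172, 118, 98 and 11 bases before the start. Of 32851 promoter windows of this length, 6.02% held at least 1 copy and 0.0213% (7 windows) held at least 4. Cdk6 held 1 copy, at 220 bases before the start. An E2F word was present in 1.86% of all windows and, among the 5 members with a window, in Cdk2, where TTTCCCGC stood on the reverse strand 140 bases before the start. GC boxes numbered 5 in Cdk2 and 4 in Ccne1, and 1.93% and 4.09% of all windows held as many. CCAAT (33.8% of all windows) was present in Ccnd3 and Cdk2, and neither TGANTCA, the AP-1 word (6.75%), nor TGACGTCA, the cyclic AMP response element (1.55%), was found in these members. These matches describe letters in the windows and not binding.

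Mean levels of Ccnd1, Ccne1, Ccne2 and the 3 kinases took 1 course: low in F cells, high in both uncompressed cultures and low under compression, each of these differences passing the test. Mean levels of Ccnd3 had the same order, but its difference between F and 2d-U did not pass and its 5d-U libraries overlapped F. Cyclin D2 followed another: it was high in F and 5d-U cells and low in the other two groups.

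**Figure D1:**
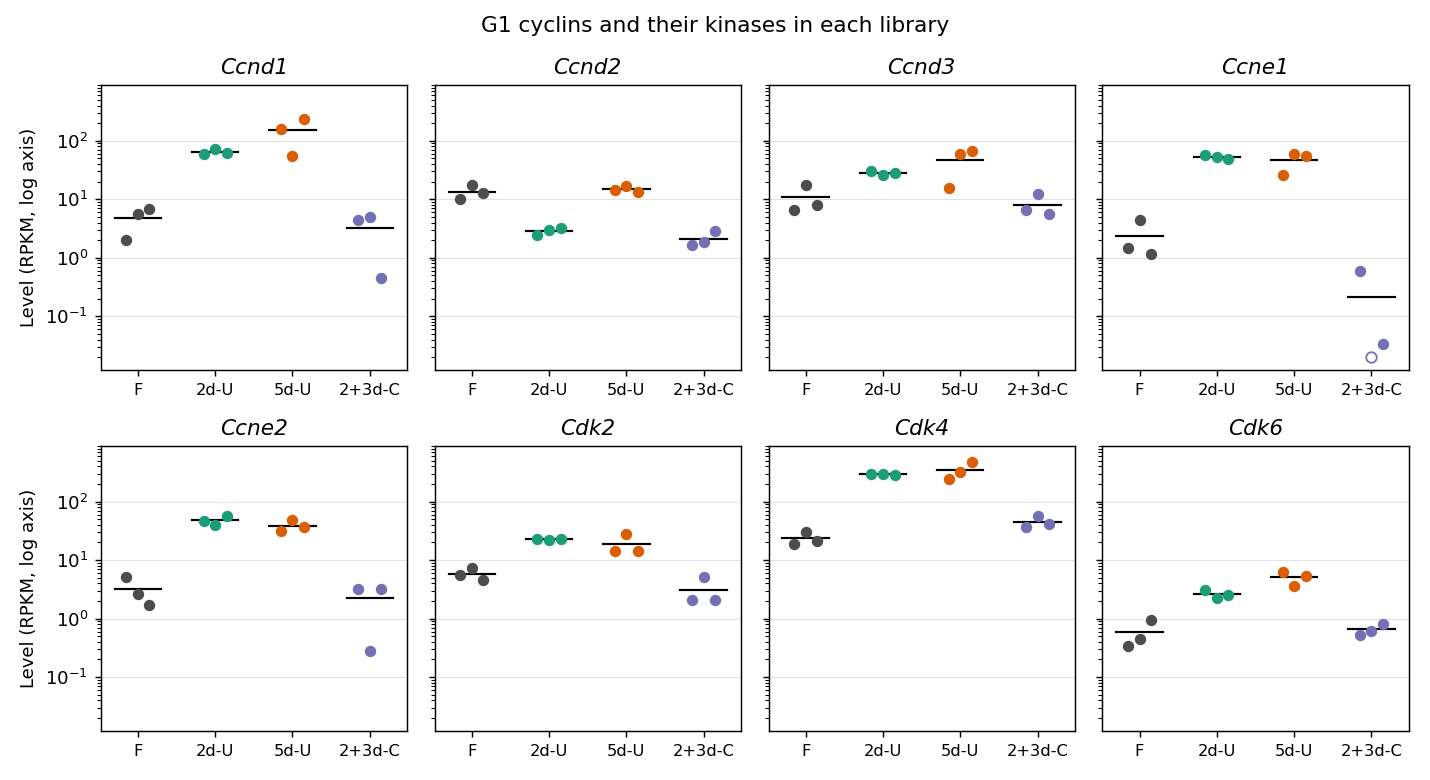
Level of each member in each library, in RPKM on a log axis, by group (3 points a group, bars are means); the open circle marks the library with 0 reads on Ccne1, drawn at the bottom of the axis because 0 has no place on a log axis. Cdk4 had the highest level in all 12 libraries, and Ccnd2 was low in 2d-U and high in 5d-U where the other members were high in both.

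Ccnd1, the D cyclin that mitogens induce most directly, stood at 2, 5.64 and 6.94 RPKM in F libraries 1, 4 and 5. The 2d-U libraries gave 60.1, 71 and 62.5 RPKM, the 5d-U libraries 161, 55.4 and 239 RPKM. The uncompressed groups overlapped each other and lay wholly above F. In 2+3d-C libraries 4, 5 and 10 it stood at 4.47, 4.9 and 0.456 RPKM, within or below the range of F. Against 5d-U, Ccnd1 in 2+3d-C was 46.4-fold lower (log2 fold change -5.54 ± 0.85 SE, adjusted p = 0.000474 by the edgeR quasi-likelihood test over all genes). Against 2d-U it was 19.7-fold lower (-4.30 ± 0.81, edgeR adjusted p = 0.00162), and against F the difference did not pass the test (-0.57 ± 0.71, edgeR adjusted p = 0.602).

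Ccnd2, the D cyclin with the highest mean level in F cells, stood at 10.2, 17.4 and 12.7 RPKM in F. The 2d-U libraries gave 2.48, 2.94 and 3.17 RPKM, the 5d-U libraries 14.7, 16.9 and 13.5 RPKM. F and 5d-U overlapped and differed by 0.16 ± 0.37 on the log2 scale (edgeR adjusted p = 0.856), and every 2d-U library lay below them. In 2+3d-C it stood at 1.64, 1.85 and 2.89 RPKM, overlapping 2d-U alone. Ccnd2 thus fell 4.70-fold from F to 2d-U (log2 -2.23 ± 0.39, edgeR adjusted p = 0.001) and rose 5.25-fold between day 2 and day 5 of uncompressed culture (2.39 ± 0.39, edgeR adjusted p = 0.0125). The latter call was lost without 2d-U replicate 1 (2.30, edgeR adjusted p = 0.0516). Under compression it was lower than in 5d-U (7.06-fold, edgeR adjusted p = 0.000258) and than in F (6.32-fold, edgeR adjusted p = 0.0028), and the latter was called whichever of the 12 libraries was dropped.

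Ccnd3, the D cyclin associated with cells leaving the cycle into muscle differentiation, had the smallest fall among the D cyclins in 2+3d-C against 5d-U. F libraries gave 6.67, 17.6 and 8.11 RPKM, 2d-U libraries 31, 25.9 and 27.7 RPKM, and 5d-U libraries 15.4, 58.7 and 67.1 RPKM. The 5d-U libraries were spread widely, with replicate 1 inside the range of F. In 2+3d-C it stood at 6.66, 12.2 and 5.53 RPKM. The compressed cells had less of it than 5d-U (log2 -2.54 ± 0.57, edgeR adjusted p = 0.00545) and less than 2d-U (-1.80 ± 0.55, edgeR adjusted p = 0.0282). The call against 2d-U was lost without any one of 2d-U replicates 1, 2 and 3 and 2+3d-C replicates 4 and 10 (log2 -1.59 to -1.87, edgeR adjusted p = 0.0507 to 0.0902). Every 2d-U library exceeded every F library (as for 20.4% of all genes), yet the difference missed the threshold (1.38 ± 0.54, edgeR adjusted p = 0.0511). The rise from F to 5d-U passed it (2.12 ± 0.56, edgeR adjusted p = 0.0133) and was lost without F replicate 1 (1.39, edgeR adjusted p = 0.12) or F replicate 5 (1.95, edgeR adjusted p = 0.0657). A processed copy named Ccnd3-ps on chromosome 4 took 1 to 155 reads per library, with the 155 in 2+3d-C replicate 4, so a few reads may be divided between the copies.

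Ccne1 had the largest fall of all members in 2+3d-C against each of the other groups. It activates Cdk2 at the entry into S phase, and stood at 1.5, 4.41 and 1.17 RPKM in F. The 2d-U libraries gave 57.2, 53.1 and 49.1 RPKM, the 5d-U libraries 26.2, 60.3 and 54.8 RPKM. In 2+3d-C it stood at 0.606 RPKM (86 reads) in replicate 4, at 0 in replicate 5 and at 0.0343 RPKM (2 reads) in replicate 10. Each compressed library lay below each F library, and replicate 4 held nearly all of the group's reads. A count of 0 in replicate 5 allows up to 3 reads, or 0.239 CPM (counts per 1000000 reads), by counting error alone. Ccne1 in 2+3d-C was lower than in 5d-U (log2 -7.53 ± 1.06, edgeR adjusted p = 0.000254), than in 2d-U (-7.70 ± 1.07, edgeR adjusted p = 0.000186) and than in F (-3.21 ± 0.89, edgeR adjusted p = 0.0463). Without 2+3d-C replicate 4 these became -10.87, -11.04 and -6.54 (the last with an edgeR adjusted p of 0.00196). The call against F was lost without F replicate 4 (-2.38, edgeR adjusted p = 0.174), F replicate 5 (-3.54, 0.0737), 2+3d-C replicate 5 (-2.78, 0.0904) or 2+3d-C replicate 10 (-2.70, 0.0898).

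Ccne2, the second E cyclin, stood at 5.17, 2.6 and 1.72 RPKM in F. The 2d-U libraries gave 46.5, 40.2 and 55.7 RPKM and the 5d-U libraries 31.9, 47.8 and 36 RPKM, against 3.19, 0.276 and 3.18 RPKM under compression, where replicate 5 had 8 reads. The compressed libraries overlapped those of F and lay far below both uncompressed groups. Compressed cells had 17.2-fold less Ccne2 than 5d-U cells (edgeR adjusted p = 0.00116) and 21.1-fold less than 2d-U cells (edgeR adjusted p = 0.000656), and it did not pass the test against F (log2 -0.49 ± 0.64, edgeR adjusted p = 0.622).

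Cdk4, a kinase that D cyclins activate, was the most abundant member in all libraries. F libraries gave 19, 30.6 and 21.5 RPKM, 2d-U libraries 291, 293 and 289 RPKM, 5d-U libraries 245, 320 and 482 RPKM, and compressed libraries 36.4, 56.7 and 41.1 RPKM. It was the one member whose compressed libraries all lay above all F libraries (as for 8.79% of all genes), with means of 44.7 and 23.7 RPKM, but this difference did not pass the test (log2 0.91 ± 0.37, edgeR adjusted p = 0.112). Against 5d-U it was 7.81-fold lower (edgeR adjusted p = 0.000179) and against 2d-U 6.5-fold lower (edgeR adjusted p = 0.000271). Its rise from F to 2d-U (12.3-fold, edgeR adjusted p = 5.78e-05) had the smallest adjusted p among the members' tests.

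Cdk6, which binds the same D cyclins, had a highest level of 6.16 RPKM. F libraries gave 0.336, 0.455 and 0.959 RPKM, 2d-U libraries 3.09, 2.24 and 2.49 RPKM, 5d-U libraries 6.16, 3.65 and 5.44 RPKM, and compressed libraries 0.519, 0.622 and 0.817 RPKM. F and 2+3d-C overlapped, and 5d-U lay above 2d-U without overlap (as for 31.7% of all genes) but short of the threshold (log2 0.96 ± 0.48, edgeR adjusted p = 0.164). Compressed cells had less Cdk6 than 5d-U cells (7.79-fold, edgeR adjusted p = 0.00112) and 2d-U cells (3.99-fold, edgeR adjusted p = 0.00971). Its low level and long exons made it the member most exposed to stray reads: from the density of reads on olfactory receptor and other gene families that should be silent, 36.2% of its reads in F replicate 4 and 19.1% in F replicate 5 would be of that kind.

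Cdk2, the kinase of the E cyclins, had smaller log2 fold changes than either of them in 2+3d-C against both uncompressed groups. F libraries gave 5.56, 7.29 and 4.61 RPKM, 2d-U libraries 22.6, 21.8 and 23.1 RPKM, 5d-U libraries 14.1, 28.1 and 14.2 RPKM, and compressed libraries 2.07, 5.07 and 2.04 RPKM. Compression went with 6.18-fold less Cdk2 than 5d-U (edgeR adjusted p = 0.00141), 7.39-fold less than 2d-U (edgeR adjusted p = 0.000676) and a difference from F that did not pass the test (log2 -0.93 ± 0.45, edgeR adjusted p = 0.145). Its rise from F to 5d-U (1.69 ± 0.46, edgeR adjusted p = 0.0158) was lost without F replicate 1 (1.25, edgeR adjusted p = 0.129), F replicate 5 (1.55, 0.0789) or 5d-U replicate 2 (1.30, 0.104).

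Counted over the members, most were higher in the uncompressed cultures than in F. In 2d-U against F, 6 of 8 members were higher and 1, Ccnd2, was lower, where 10.6% of the 22635 tested genes were higher and 33.3% lower. In 5d-U against F, 7 were higher and none lower (11.6% of all genes higher, 8.9% lower), Ccnd2 being the exception. Between the uncompressed days, 5d-U against 2d-U, 1 member passed the test, Ccnd2 (1.87% of all genes higher, 0.243% lower). The members' median log2 fold changes were 2.89, 3.37 and 0.50 in these comparisons, and those of all tested genes -1.63, -0.41 and 1.13. The medians of all genes depend on the filter on low counts: at a mean of at least 5 CPM they were -0.21, -0.07 and 0.34.

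In the compressed cells, all 8 members were lower than in 5d-U, the uncompressed cells of the same age in culture (13.4% of all genes were lower), and their libraries did not overlap for any of the 8 (29.7% of all genes lower without overlap). Against 2d-U, the state from which compression started, 7 were lower and none higher (8.63% and 16% of all genes), Ccnd2 again the exception. Against F, 2 were lower, Ccnd2 and Ccne1 (4.47% of all genes), and none passed as higher (1.94%). The median log2 fold changes of the members were -2.96, -2.79 and -0.53, and those of all tested genes -1.05, 0.00 and -0.76. At a mean of at least 5 CPM the medians of all genes were -0.00, 0.24 and -0.07. The comparisons share libraries, so their counts are not independent of each other.

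**Figure D2:**
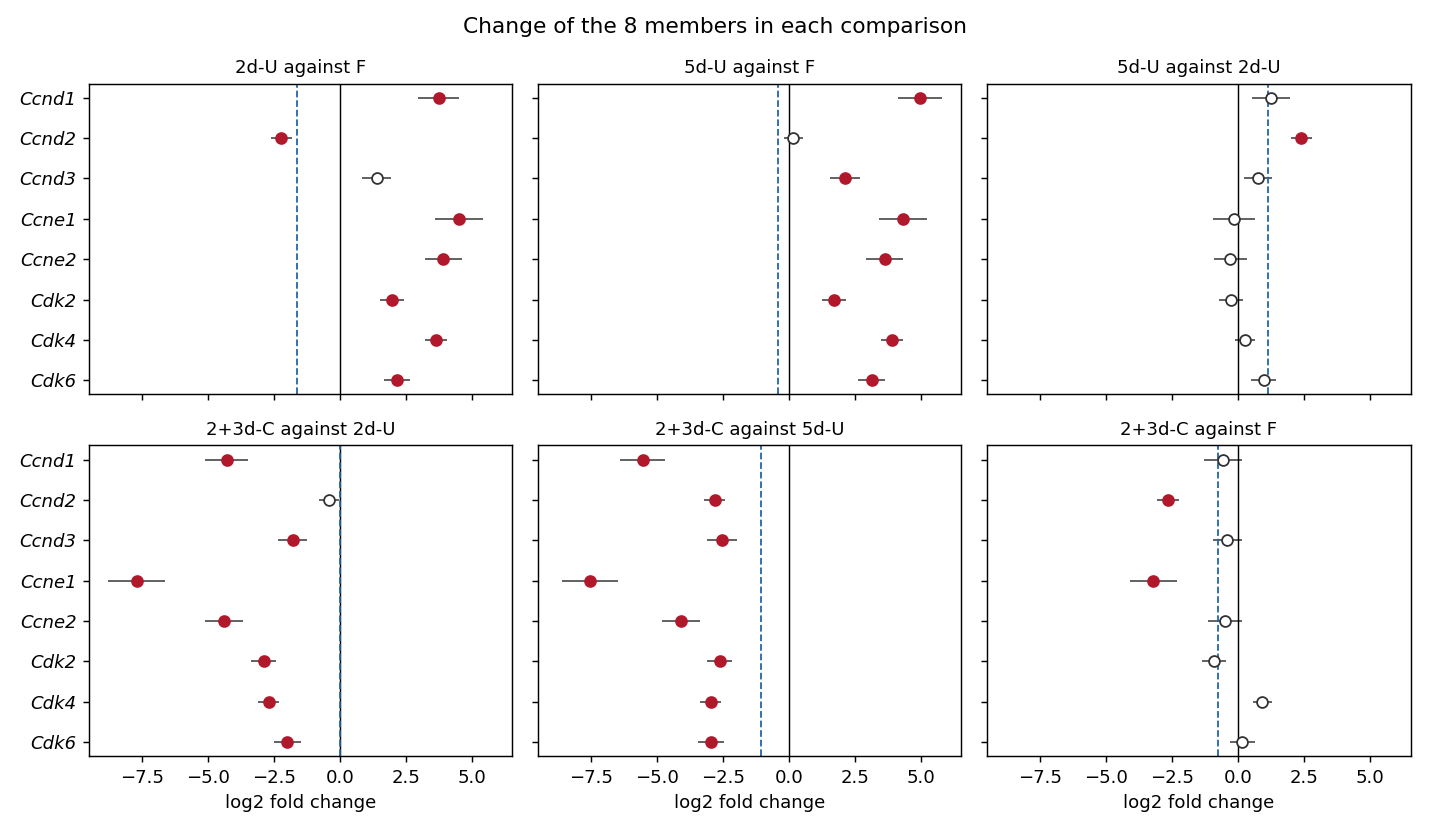
log2 fold change of each member (points, with 1 standard error) in the 6 comparisons; filled points passed an edgeR adjusted p of 0.05, open points did not, and the dashed line is the median of all 22635 tested genes. That median depends on the filter on low counts. All 8 points lie left of 0 for 2+3d-C against 5d-U, and those for 2+3d-C against F scatter about 0 except Ccnd2 and Ccne1.

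Summed by role, the D cyclins reached 29.1 ± 11 RPKM in F, then 95.6 ± 3.64 (2d-U), 214 ± 96.2 (5d-U) and 13.5 ± 5.06 RPKM (2+3d-C; mean ± SD, n = 3 libraries each, as in the next values). The E cyclins summed to 5.52 ± 2.28, 101 ± 6.39, 85.7 ± 25.4 and 2.43 ± 1.89 RPKM in the same order. The D cyclin kinases Cdk4 and Cdk6 summed to 24.3 ± 6.11, 293 ± 1.85, 354 ± 121 and 45.4 ± 10.6 RPKM. In the uncompressed groups the 5d-U libraries varied far more than those of 2d-U. The D cyclin and kinase sums of 2+3d-C lay on opposite sides of F: below it on average for the cyclins (ranges 8.88 to 18.9 and 18.9 to 40.7 RPKM) and above it for the kinases (36.9 to 57.3 and 19.3 to 31.1 RPKM). The sums were not tested. Of the genes in them, Ccnd2 alone passed in 2+3d-C against F. Cdk4, which makes up nearly all of the kinase sum, did not (edgeR adjusted p = 0.112).

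The makeup of the D cyclins, a share within each library that does not depend on scaling between libraries, differed among the groups. In F cells Ccnd2 made up 54.1%, 42.8% and 45.7% of the D cyclin RPKM. The 2d-U libraries gave 2.64%, 2.94% and 3.4%, the 5d-U libraries 7.69%, 12.9% and 4.23%, and the compressed libraries 12.8%, 9.77% and 32.6%. F thus had the largest Ccnd2 shares and 2d-U the smallest, neither overlapping another group (exact permutation test over the 15400 partitions of the libraries into groups, p = 0.000779, adjusted over 5 shares 0.0039). Ccnd1 made up 16.5% ± 7.58 in F, against 67.4% ± 3.49 (2d-U), 67.1% ± 22 (5d-U) and 22% ± 15.3 (2+3d-C) elsewhere (SD, n = 3, exact permutation adjusted p = 0.0183). Ccnd3 was the leading D cyclin in each compressed library, at 52.1%, 64.3% and 62.2%, above its share in every other library (means 36%, 29.6% and 24.6% over F, 2d-U and 5d-U libraries, exact permutation adjusted p = 0.0205). The Ccnd3 result was lost without 2+3d-C replicate 5 (exact permutation p = 0.0654, adjusted 0.0817) or replicate 10 (0.0582, adjusted 0.0728). The tests say that the groups were not alike. For a pair of groups, 3 libraries against 3 cannot go below an exact p of 0.1, so no pair was tested.

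Ccne2 made up 77.5%, 37.1% and 59.6% of the E cyclin RPKM in F. The 2d-U libraries gave 44.8%, 43.1% and 53.1%, the 5d-U libraries 54.9%, 44.2% and 39.6%, and the compressed libraries 84.1%, 100% and 98.9% (exact permutation p = 0.0116, adjusted 0.0194). The compressed libraries thus held little Ccne1 beside Ccne2. The 100% rests on 8 reads, for which the share of reads has an exact (Clopper-Pearson) 95% interval of 63.1% to 100%, whereas in replicates 4 and 10 the intervals are 84.6% to 89.8% and 97.1% to 99.9%. These intervals cover counting error alone. Without 2+3d-C replicate 5 or 10 the adjusted p became 0.0502 and 0.0501 (exact permutation p = 0.0301 in both). The share of Cdk6 in the Cdk4 and Cdk6 RPKM, at 0.759% to 4.26% over all libraries, did not pass the test (exact permutation p = 0.203).

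**Figure D3:**
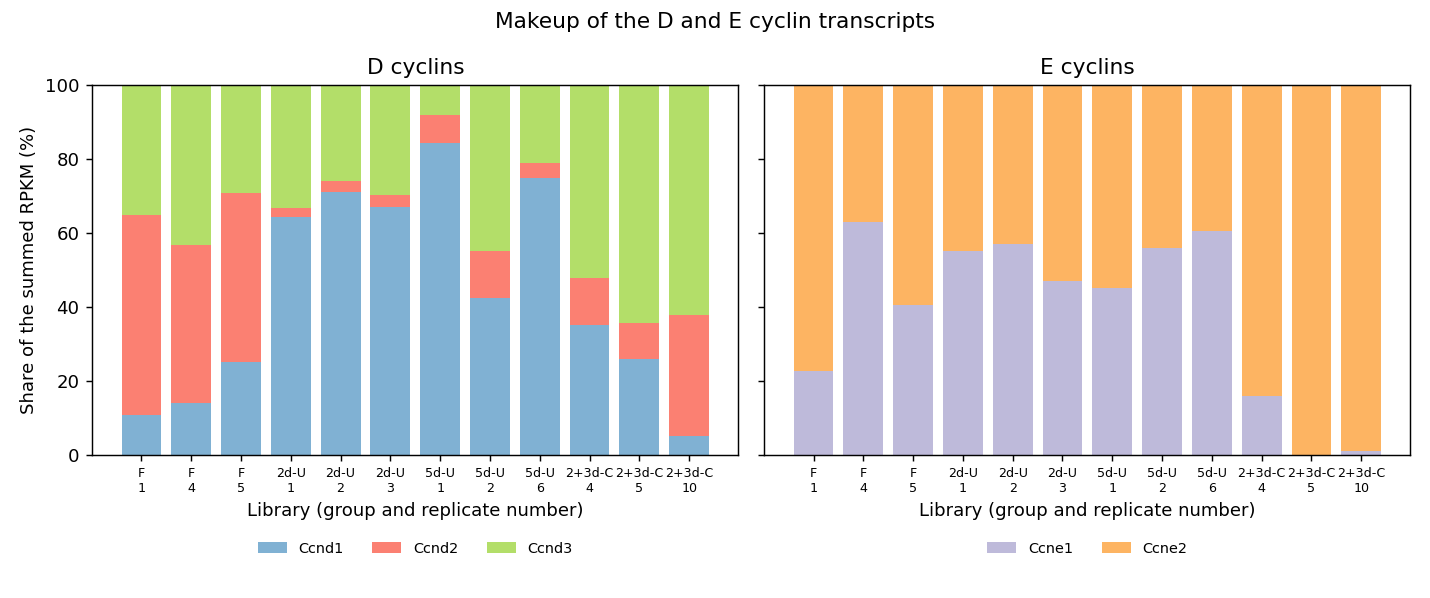
Share of each D cyclin (left) and each E cyclin (right) in the summed RPKM of its family, in percent, for each of the 12 libraries. Ccnd2 fills the middle of the F bars and shrinks in 2d-U, Ccnd3 is the largest part in 2+3d-C, and Ccne1 is nearly absent from 2+3d-C replicates 5 and 10.

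The course of each member over the 12 libraries was also set beside that of 8845 other genes whose mean reached 10 CPM. The likeness is given as Pearson's r of log2 CPM, which rests largely on the differences between the 4 groups and on shared libraries, and no p is attached. Ccne1 was most like Aurka (r = 0.994), a mitotic kinase, followed by Wrb (0.993) and Birc5 (0.990), a mitotic survivin. Ccne2 was most like Sinhcaf (0.991) and Prim1 (0.985), a DNA primase subunit, and Ccnd1 like Dyrk3 (0.974) and Gins2 (0.972), part of the replicative helicase. Cdk4 was most like Ppil1 (0.993) and Mrpl45 (0.991), Cdk2 like Asns (0.991), asparagine synthetase, Cdk6 like Grpel2 (0.946) and Ccnd3 like Slc25a11 (0.959). Ccnd2 was most like Sulf2 (0.919), a heparan sulfate editing enzyme, then Lcor (0.873) and Ptgs1 (0.870). Among the members themselves, the 21 pairs without Ccnd2 had r of 0.70 to 0.92 and the 7 pairs with it 0.02 to 0.38.

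Related genes were taken as 7 lists with 87 genes. Of the 10 E2F and DP factors, which carry the signal from the cyclin kinases to transcription, 5 were lower and 2 higher under compression than in 5d-U (13.4% and 9.14% of all genes). E2f1, an activator, was lower (log2 -4.11, edgeR adjusted p = 0.0055), and at -5.59 without 2+3d-C replicate 5. Its partner Tfdp1 was lower (-1.69, 0.0147), a call lost without 5d-U replicate 2 (-1.40, 0.0601) and with the 2 groups alone (-1.62, 0.0633). E2f5, found with pocket proteins in resting cells, was higher (2.15, 0.0113), a call lost without 5d-U replicate 6 (1.93, 0.0548) and with a term for silent-family reads (1.65, 0.145). E2f4, of the same kind, was near the threshold against 5d-U (1.05, 0.0451), and that call was kept in 1 of 12 fits with a library left out (edgeR adjusted p up to 0.125). Against 2d-U E2f4 was lower (-1.41, 0.0107), which was lost without 2d-U replicate 3 (-1.35, 0.0641). Of 20 G1/S genes that E2F controls, 15 were lower under compression than in 5d-U (13.4% of all genes) and 16 lower than in 2d-U (8.63%). None was higher against either (9.14% and 16% of all genes). Rrm2, a ribonucleotide reductase subunit, was at -6.41 on the log2 scale against 5d-U (edgeR adjusted p = 0.000329; -7.12 without 2+3d-C replicate 5) and Tk1, thymidine kinase, at -6.76 (3.35e-05; -6.08 without 5d-U replicate 6). In 2d-U against F, 17 of the 20 were higher (10.6% of all genes). In 2+3d-C against F 1 was higher and none lower, near the shares over all genes (1.94% and 4.47%).

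Of the later cyclins, Cdk1 and its regulators, 7 of 10 tested were lower under compression than in 5d-U and none higher (13.4% and 9.14% of all genes). Ccna2, the S phase cyclin, was at -6.07 (edgeR adjusted p = 0.000905) and Cdk1 at -9.23 (5.23e-05) on the log2 scale. Without 2+3d-C replicate 10 these were -8.58 and -10.63. Of 12 genes for the CDK-activating kinase and for ubiquitin ligases that act on cyclins and inhibitors, 5 were lower and 1 higher, where 13.4% and 9.14% of all genes were, so the 1 higher is no more than the share over all genes. Skp2, which targets CDK inhibitors for degradation, was at -4.38 (edgeR adjusted p = 0.00338) and its cofactor Cks1b at -4.78 (0.00021). Without 2+3d-C replicate 5 these were -5.63 and -5.41, and Cks1b was -3.94 without 5d-U replicate 6. Ambra1, which promotes the degradation of D cyclins, was the higher one (2.93, 0.00758; 2.15, 0.0434 without 2+3d-C replicate 4).

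Of the 10 CDK inhibitors and retinoblastoma family members, 2 were lower and 1 higher under compression than in 5d-U, close to the shares over all genes (13.4% and 9.14%). The higher one was Cdkn1c (p57), at 62.3 against 6.5 mean CPM (log2 3.26, edgeR adjusted p = 0.0391), with 59.6 CPM in F and 0.139 in 2d-U. That call was kept in 7 of 12 fits with a library left out, and was lost without F replicate 4 or 5, 5d-U replicate 1 or 2, or 2+3d-C replicate 5 (edgeR adjusted p = 0.0522 to 0.0922) and with the term for silent-family reads (0.143), while the value was 4.31 without 5d-U replicate 6 and 2.63 without 2+3d-C replicate 5. Of the lower ones, Cdkn2b (p15) was at -7.67 (edgeR adjusted p = 0.00257), with 5d-U libraries spread over 7.17, 56.8 and 150 RPKM. The other was Cdkn2c (p18), at -4.49 (edgeR adjusted p = 0.0163), a call lost with the 2 groups alone (0.0624) and with the replicate block (0.0599). The compressed libraries held 1.98, 0 and 0.017 RPKM of Cdkn2c, and without replicate 4 its value was -10.21. Cdkn1a (p21) had mean CPM of 1034 (2+3d-C), 1329 (5d-U), 171 (2d-U) and 498 (F). It was higher than in 2d-U both in 2+3d-C (2.59, edgeR adjusted p = 0.00665; 1.93 without replicate 5) and in 5d-U (2.96, 0.029), and 2+3d-C did not pass against 5d-U (-0.36, 0.634). The call in 5d-U was lost without any one 2d-U library or 5d-U replicate 6 (1.87 to 2.98, edgeR adjusted p = 0.0656 to 0.0756).

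Of 12 factors on the mitogen side of the D cyclins, 8 were higher and 1 lower under compression than in 5d-U (9.14% and 13.4% of all genes), while the D cyclins themselves were lower. Myc was at 4.76 (edgeR adjusted p = 7.74e-05), Fgfr1, an FGF receptor, at 5.69 (4.1e-05), Egfr at 4.25 (0.00107) and Fos at 7.30 (9.83e-06) on the log2 scale. Without 5d-U replicate 1 Myc was at 5.51 and Egfr at 5.29, without 2+3d-C replicate 4 Egfr was at 3.64, and without 5d-U replicate 6 Fos was at 8.0. Mean CPM of Myc were 5531 (2+3d-C), 205 (5d-U), 438 (2d-U) and 1327 (F), so Myc was highest in the group where the mean level of each of the 8 members was below that of both uncompressed groups. In 2+3d-C against F, 1 of the 12 factors was higher, Myc, and 1 lower (1.94% and 4.47% of all genes). That call of Myc (2.06, edgeR adjusted p = 0.0328) was kept in 9 of 12 fits with a library left out. Fgfr1 (1.72, 0.0628), Egfr (0.48, 0.635) and Fos (-0.56, 0.46) did not pass against F. Of 12 transcriptional cyclins and kinases, which share the fold but not the cell cycle role, 5 were higher and 1 lower under compression than in 5d-U (9.14% and 13.4% of all genes). Ccnl1, a cyclin tied to splicing, was at 3.45 (edgeR adjusted p = 0.000365). Ccnt1, part of the elongation kinase, was at 1.87 (0.0114, lost without 5d-U replicate 2 or 6, and 2.56 without 5d-U replicate 1).

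**Figure D4:**
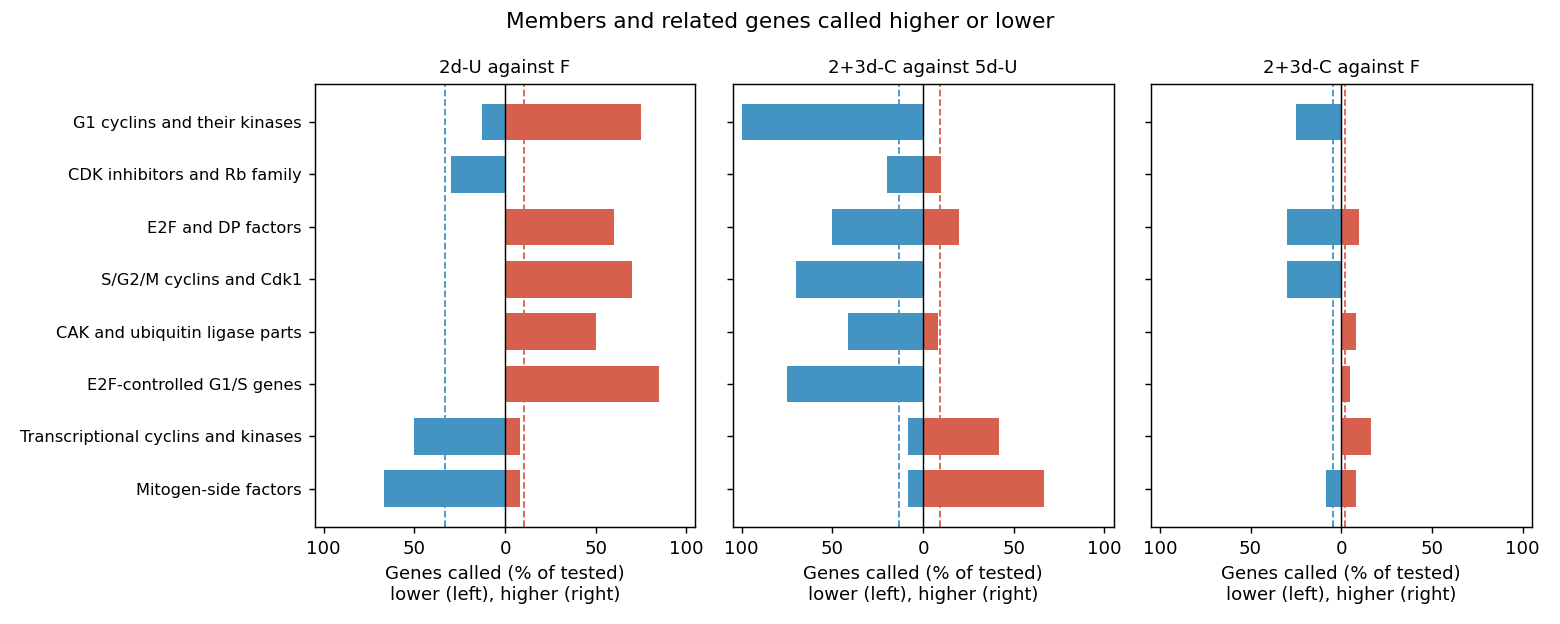
Percent of the tested genes of each list called higher (right, red) or lower (left, blue) at an edgeR adjusted p under 0.05 in 3 comparisons; dashed lines are the same percent over all 22635 tested genes. The members and the E2F-controlled genes lie on the higher side in 2d-U against F and on the lower side in 2+3d-C against 5d-U, and the mitogen-side factors lie on the opposite side in both.

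The samples were checked for other cells that can carry these cyclins. Muscle stem cell markers (10 genes) summed to 3284 to 6381 CPM in F, 1926 to 2987 in the uncompressed groups and 11463 to 14342 in 2+3d-C. The sum in 2+3d-C was mostly Myod1 (4410, 5587 and 3875 CPM), Sdc4 and Vcam1, with Pax7 at 72.1, 58.3 and 56.5 CPM. Uncompressed libraries had at most 44.6 CPM of Pax7. Msc (614, 875 and 512 CPM), Chrdl2 (529, 867 and 1576 CPM) and Calcr (67.1, 19 and 42.1 CPM) also lay above every uncompressed library. Those held at most 5.58, 9.54 and 1.34 CPM of them. Myf5 and Cdh15 overlapped the uncompressed groups, and Itga7 (364, 55.1 and 395 CPM) lay below 2d-U (563, 467 and 544 CPM). The paper counts cells with MyoD protein as progenitors or committed cells, so this sum is no measure of stem cell state. Marker sums of immune cells (7 genes) were 33 to 65.5 CPM (2+3d-C), 1.46 to 129 (5d-U), 0.827 to 2.62 (2d-U) and 878 to 2024 (F), and those of endothelial cells (7 genes) were, in the same order, 163 to 237, 2.48 to 35.9, 5.98 to 8.07 and 976 to 1938 CPM. Fibroadipogenic markers (7 genes) summed to 2394 to 7484 CPM in F, 11.2 to 302 in the uncompressed groups and 593 to 748 in 2+3d-C. The 2d-U sums were almost all Cd34 (248, 253 and 288 CPM), with Pdgfra, Lum, Dpt and Col15a1 at 0. Smooth muscle or pericyte markers (7 genes) reached at most 21.9 CPM in the uncompressed groups, against 488 to 871 CPM in F and 114 to 513 CPM under compression, glial markers (5 genes) at most 12.4 against 428 to 910 and 178 to 403 CPM, and erythroid markers (5 genes) at most 0.261 against 193 to 658 and 25.5 to 210 CPM. Mature myofiber markers (7 genes) summed to 28.4 to 3084 CPM in F, 65.1 to 2348 in the uncompressed groups and 56.5 to 131 CPM under compression. No list had a marker with 3 reads or fewer in all 12 libraries. For each list of other cells but the myofiber one, compressed libraries carried more than uncompressed ones, except for immune markers in 1 of the 5d-U libraries, and F libraries carried more than compressed ones, except that the ranges overlapped for the smooth muscle or pericyte and the erythroid markers. The first of these overlaps rested on Notch3, which MuSCs also express and which stood at 391, 51.6 and 350 CPM in 2+3d-C. Without it, a choice made after seeing the data, the sums of the other 6 markers were 62.5 to 133 CPM in 2+3d-C and 460 to 795 CPM in F. Ccnd2 was high in F and as high in 5d-U. For each list of other cells but the myofiber one, every 5d-U sum lay below every F sum. Myofiber markers differed: each 5d-U library carried at least 181 CPM of them, more than any 2d-U library (at most 113 CPM) or compressed library (at most 131 CPM). Their F sums fell on both sides of these values. In 5d-U replicates 1, 2 and 6 the sums were mostly Acta1 (166, 1026 and 972 CPM), Tnnt3 and Mylpf. Ckm, Myh4, Myh1 and Myh2 were each at most 8.71 CPM there. Whether this RNA came from mature fibers or from the cultured cells themselves was not tested. The part of other cells in the members' levels was not tested.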

How the data were processed

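RNA of 12 mouse MuSC libraries (3 each of 4 groups) was amplified with a SMART-seq kit and sequenced from one end. The authors mapped reads to mm10 with the nf-core RNA-seq pipeline and deposited unnormalized read counts on the exons of each GENCODE vM23 gene, made with featureCounts 1.6.4 without regard to strand, per the file headers, so reads of antisense genes cannot be told apart. Groups were taken from the labels. Depth was 12540745 to 62424851 reads on genes per library. Counts were read from the deposited merged table, whose 12 columns were identical to the single-library files.

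Differences were tested with edgeR 4.0.16 under R 4.3.3: filterByExpr with the groups, TMM scaling, 1 quasi-likelihood fit of all 12 libraries with a coefficient per group, two-sided tests, and Benjamini-Hochberg adjustment over the 22635 tested genes, called at an adjusted p under 0.05. Standard errors are the log2 fold change divided by the square root of F. RPKM used the exon length in the files with library sizes scaled by TMM. The prior count of log2 CPM was 2. Shares were tested by exact permutation in Python 3.11.15. The tests were checked on simulated data. No pair of libraries was alike within sampling noise. The labels do not say whether a shared replicate number is a shared sort, so the main fit had no replicate block. Deviations of libraries with the same number correlated at 0.0322 at most, which cannot settle the question.

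The members, gene lists, markers and tests were chosen with earlier results of these data known. All 8 members are named. Of the pathway lists, any gene of a list of at most 12 genes could be named, and of the E2F-controlled list those with the highest mean CPM or the smallest p. For likeness, the 3 genes with the highest r were taken. Alternatives were DESeq2 1.42.0, library size without TMM, other filters on low counts (none, or a mean of at least 5 CPM), scaling without mitochondrial genes, a replicate block, fits of 2 groups alone, subtraction of or a term for reads on silent gene families, other thresholds (0.1 and 0.01), shares of counts or log2 ratios, and each library left out.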

Additional observations from a re-analysis of the deposited data

How the results depend on the processing

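Of 667 values of the 32 called member differences under the alternatives, 632 kept their direction and side of the threshold, 35 kept the direction but not the call, and 0 changed sign. Of 335 values for the 16 differences not called, 9 passed the threshold, all of Ccnd3 in 2d-U against F (adjusted p of 0.0218 to 0.049), and 25 changed sign. Of 693 values of named related genes, with Cdkn2b left out, 616 kept direction and side and 77 the direction alone. In 2+3d-C against 5d-U, calls lost with the replicate block included those of E2f4 (edgeR adjusted p = 0.96), Ccnt1 (0.307), Tfdp1 (0.218), Cks1b (0.056) and Cdkn1c (0.0541). In 2+3d-C against 2d-U they included those of E2f4 (0.245) and Cdkn1a (0.235). Limits are set by 3 libraries a group, by 0 to 86 Ccne1 reads in 2+3d-C, and by reads on silent gene families, at 5.12 and 7.24 per kb in F replicates 4 and 5 and 3.84 in 5d-U replicate 1 against 0.641 or less elsewhere. Without TMM, the median of all genes moved by -0.16, 0.00 and -0.48 (2+3d-C against 5d-U, 2d-U and F) and by -0.48, -0.29 and 0.09 (5d-U against 2d-U, 5d-U against F, 2d-U against F), and with DESeq2 by -0.40 to 0.15.

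The replicate block gave 5 called members in place of 8 in 2+3d-C against 5d-U, 3 in place of 7 against 2d-U, 4 in place of 7 in 5d-U against F and 4 in place of 7 in 2d-U against F. Calls lost in 2+3d-C were Ccnd3, Cdk2 and Cdk4 against 5d-U (edgeR adjusted p = 0.0601 to 0.167). Against 2d-U they were these and Cdk6 (0.0939 to 0.277). Calls lost against F were Ccnd3, Ccne2 and Cdk2 (5d-U) and Ccnd2, Cdk2 and Cdk6 (2d-U). No 2+3d-C library shared its number with a 5d-U or 2d-U library. The block thus compared them only through F and paired none of them directly. Libraries of the same number did not deviate together (r of -0.424 to 0.0322). With 3 libraries a group and stray reads in some of them, this cannot show whether they shared a sort. The paper states that each sorted batch was divided at random over the conditions, so a pairing by sort is possible. In 2+3d-C against F, the 2 called members became 1 at an adjusted p under 0.01, with DESeq2 (which gave Ccne1 no adjusted p), with the 2 groups alone and with silent-family reads subtracted or as a term, and were 1 to 2 with a library left out. In 5d-U against 2d-U, the 1 called became 0 at 0.01, without TMM and with the silent-family term, and was 0 to 1 with a library left out. With a library left out, the permutation p was 0.000195 to 0.0654 for the Ccnd3 share and 0.0013 to 0.0301 for the Ccne2 share. The log2 ratio of Ccne2 could not be had because Ccne1 had 0 reads in 2+3d-C replicate 5.

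The signs that changed were all of differences that did not pass the test. In 2+3d-C against F, Cdk6 became -0.09 with DESeq2, -0.34 without TMM, -0.13 at a mean of 5 CPM and with the 2 groups alone, -0.21 with the block, -0.26 without F replicate 1 and -0.03 without 2+3d-C replicate 10. In the same comparison Ccnd1 became 0.77 with the silent-family term, Ccnd3 0.14 without F replicate 4 and Ccne2 0.02 without 2+3d-C replicate 5. In 5d-U against F, Ccnd2 became -0.26 with DESeq2, -0.16 without TMM and at a mean of 5 CPM, -0.12 with subtraction and -0.41 without F replicate 1. In 5d-U against 2d-U, Cdk4 became -0.24 without TMM, -0.01 without a filter, -0.06 with the block, -0.11 with the 2 groups alone or without F replicate 1, and -0.04 without 5d-U replicate 6. In that comparison the silent-family term gave Ccnd1 -0.15, Ccne2 0.28 and Cdk2 0.00, and Ccne1 was 0.12 without 5d-U replicate 1. Over the libraries left out in turn these ran from -0.26 to 0.72 (Cdk6), -0.82 to 0.14 (Ccnd3) and -0.83 to 0.02 (Ccne2) against F under compression, from -0.41 to 0.40 (Ccnd2) in 5d-U against F, and from -0.11 to 0.47 (Cdk4) and -0.54 to 0.12 (Ccne1) in 5d-U against 2d-U. The cause was not tested.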
